A study of Mus musculus with 12 samples.

Results

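The histone methylation enzymes described here are the 55 probe sets, of 50 genes, whose single annotated gene symbol began with Kmt, Kdm, Setd, Ehmt, Suv39h, Ezh, Prmt or Nsd followed by a number. They were taken by name alone from 23410 tested probe sets with a gene symbol, out of 28853 on the array. The cells were naive CD4 T cells of C57BL/6 mice in 6 groups: WT and PP2Ac transgenic, each without stimulation (0 h) or after 6 h or 24 h with soluble antibodies to CD3 (0.25 ug/mL) and CD28 (0.5 ug/mL) over plate-bound goat antibody to hamster immunoglobulin. PP2Ac is the catalytic subunit of protein phosphatase 2A, and Ppp2ca is its gene. Every group had 2 one-colour arrays, 1 with an unmarked title and 1 with a title marked Rep. The promoter of the transgene, the age and sex of the mice and the number of mice per array are not given in the sources used here. Nothing there says that the arrays of a group came from separate mice or cultures, so p-values measure only the spread between these samples. The comparisons ask how the transcripts of these enzymes change on activation, and whether extra PP2Ac alters their level or that change.

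Methyl groups on histone tails are placed by writers and removed by erasers, and the residue decides how the mark is read. Methylation of lysine 4 of histone H3 (H3K4) marks promoters and enhancers, that of lysine 36 (H3K36) marks transcribed gene bodies, and that of lysines 9 and 27 (H3K9, H3K27) marks repressed chromatin. Most lysine writers carry a SET domain, arginine writers form the PRMT family, and erasers are either flavin-dependent (the Kdm1 pair) or JmjC domain enzymes. In T cells, Polycomb repressive complex 2 with its writer Ezh2, the H3K27 eraser Kdm6b and the arginine writer Prmt5 are well known for parts in proliferation and in helper cell differentiation. A mark depends on the protein and its activity, whereas the arrays measured RNA.

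Values are deposited log2 intensities after quantile normalisation between arrays, and differences are log2 differences of group means ± the standard error of the fit, with n = 2 arrays per group. A gene is said to have risen or fallen where limma's adjusted p was under 0.05 over all 23410 probe sets. Levels are not compared between probe sets, since the signal also depends on the probes. Of the 55 probe sets, 53 read above the lower quartile of the arrays (5.81) on all 12. Prmt8, a brain enzyme, read 4.76 to 5.12 throughout, and Suv39h2 was below the quartile on 1 array. Kdm7a, Kmt2d, Setd1b, Setd2 and Setd3 have 2 probe sets each. Suv39h1 was not analysed here. Setd8, the H4K20 writer, is listed under its present symbol Kmt5a.

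The transgene's gene Ppp2ca read 13.15 to 13.42 on the WT arrays and 13.69 to 13.90 on the transgenic arrays, with no overlap, and was higher by 0.57 ± 0.05 over the 3 times (limma adjusted p = 0.00438). At single times the differences were 0.74, 0.39 and 0.60 at 0, 6 and 24 h, and they were not called (adjusted p = 0.0551, 1 and 0.282). The pooled call was lost when the 3 WT arrays marked Rep were left out (0.1). The 8 measured T cell markers averaged 12.93 to 13.24 per array, and in each genotype 2 of them rose and 4 fell at 6 h. Among all tested probe sets 12.6% rose and 13.9% fell at 6 h in WT cells, and 12.5% and 12.9% in transgenic cells. Of the libraries, 3 stood apart: the 10 neutrophil markers averaged 7.86 to 8.99 on the 3 WT arrays marked Rep, 11.38 to 12.40 on the other WT arrays and 10.08 to 12.20 on the transgenic arrays. The 8 monocyte markers followed with 7.94 to 8.65, 9.82 to 9.98 and 9.52 to 10.21, so WT counts are also given without those libraries. That fit keeps 1 array per WT group, those with the higher neutrophil markers, and takes its spread from the transgenic arrays alone. A call lost there can therefore reflect the smaller number of arrays. At 24 h against 0 h, 13.8% of all tested probe sets were called lower in WT cells. In transgenic cells 11.8% were called lower and 12% higher. Between 0 h and 24 h in WT cells 0 of 10 neutrophil, 1 of 8 monocyte, 2 of 7 B cell, 2 of 7 NK cell, 4 of 7 dendritic cell and 1 of 3 erythroid markers passed for a fall. In transgenic cells the counts were 0, 1, 2, 2, 3 and 2, and 1 of the 2 CD8 markers rose. The neutrophil mean was nevertheless lower at 24 h than at 0 h within each mark, 11.38 against 12.40 and 7.86 against 8.99 in WT cells and 10.58 against 12.20 and 10.08 against 11.38 in transgenic cells. The median difference of its 10 markers was -1.07 in WT and -1.50 in transgenic cells, and in a fit without the 3 WT arrays marked Rep 9 of 10 were called lower in transgenic cells. The erythroid mean went from 8.06 and 7.26 to 7.13 and 7.09 in WT cells and from 8.56 and 8.49 to 7.15 and 7.07 in transgenic cells. B cell markers averaged 11.14 to 11.41 per array at 0 h, 10.18 to 10.64 at 6 h and 10.46 to 11.30 at 24 h; the part of other cells in the results below was not tested. In such bulk RNA, fewer cells of a type and less RNA per cell cannot be told apart. The activation genes Myc and Il2ra read 11.01 to 11.75 and 10.00 to 11.10 at 0 h, and 13.44 to 13.58 and 13.47 to 13.61 at 6 h.

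Most of the histone methylation enzymes differed between unstimulated and stimulated cells, and more of them fell than rose. No unstimulated cultures of 6 h or 24 h are among the samples, so the antibodies and the time in culture cannot be told apart. At 6 h in WT cells 13 of 55 probe sets were called higher and 24 lower, shares of 23.6% and 43.6%, where 12.6% and 13.9% of all tested probe sets were called. At 24 h against 0 h in WT cells the counts were 11 and 29 (20% and 52.7%), where the shares of all tested were 12.9% and 13.8%. Transgenic cells gave 12 higher and 22 lower at 6 h (21.8% and 40%, against 12.5% and 12.9% of all tested) and 9 and 26 at 24 h (16.4% and 47.3%, against 12% and 11.8%). The members are brighter than most probe sets: 54 of 55 lie outside the 40% dimmest. Among probe sets other than the 40% dimmest, the shares called higher and lower in WT cells were 19.1% and 20.5% at 6 h and 19.1% and 20.6% at 24 h, and in transgenic cells 19% and 19.3%, and 17.9% and 17.7%. So the share called higher was near the background of bright probe sets, and the share called lower was above it, in both genotypes. The median difference of the 55 was -0.345 and -0.391 in WT cells at 6 h and 24 h, and -0.279 and -0.394 in transgenic cells, where that of all tested probe sets lay between -0.023 and 0. From 6 h to 24 h, 6 rose and 13 fell in each genotype (10.9% and 23.6%). Of all tested, 7.49% and 5.86% were called higher and lower in WT cells and 7.89% and 6.42% in transgenic cells. Without the 40% dimmest these shares were 11% and 8.95% in WT cells and 11.8% and 9.84% in transgenic cells. The share called higher was thus again near the background of bright probe sets.

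Each called difference in these 6 comparisons had the same sign within the unmarked arrays and within the arrays marked Rep. A call needs a mean difference that is large against the spread, so this agreement is no separate support. On leaving out the 3 WT arrays with that mark, the WT counts were 6 higher and 13 lower at 6 h (18.2% of all tested called in either direction), 7 and 20 at 24 h (12.3%) and 2 and 1 from 6 h to 24 h (5.95%). The 6 h count of 37 in WT cells also dropped to 24 without the unmarked WT array at 6 h and to 23 without the WT array marked Rep at 0 h.

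**Figure D1:**
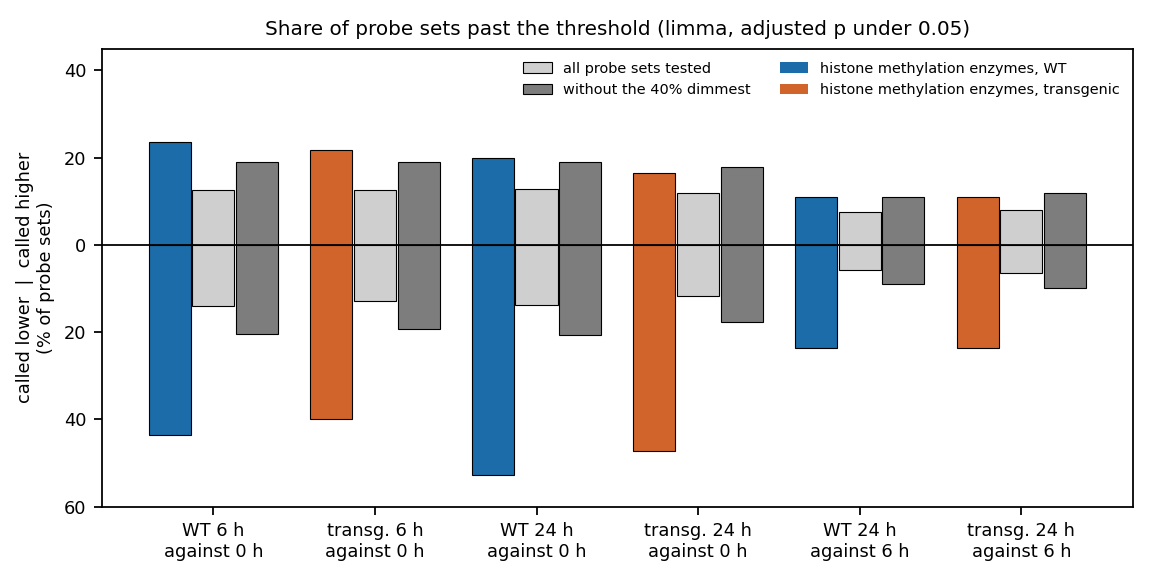
Bars give the percentage of probe sets called higher (above 0) or lower (below 0) in 6 comparisons, for the 55 histone methylation enzymes (blue in WT, orange in transgenic cells), for all tested probe sets (light grey) and for those other than the 40% dimmest (dark grey). The downward coloured bars reach 43.6% and 52.7% in WT cells at 6 h and 24 h against 0 h, past both grey bars.

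The catalytic subunits of Polycomb repressive complex 2, which methylates H3K27, moved in opposite directions. Ezh2, the subunit of dividing cells, read 11.46 and 11.18 on the WT arrays at 0 h, 12.25 and 11.91 at 6 h and 13.17 and 13.10 at 24 h (the unmarked array is given first here and below). Transgenic arrays read 11.41 and 11.40, then 12.35 and 12, then 13.29 and 12.94. Neither genotype's arrays overlapped between times. The rise to 24 h was 1.81 ± 0.17 in WT cells, 3.51-fold (limma adjusted p = 0.000146), and 1.71 ± 0.17 in transgenic cells, 3.27-fold (adjusted p = 0.0003). Ezh2 was the only one of the 55 probe sets that passed both for a rise to 6 h and for a rise from 6 h to 24 h, a pattern held by 0.355% of all tested in WT and 0.278% in transgenic cells. Ezh1, the subunit that predominates in resting cells, read 12.13 and 12.08 in WT cells at 0 h, 11.36 and 11.60 at 6 h and 11.22 and 11.13 at 24 h. In transgenic cells it read 12.11 and 12.04, 11.44 and 11.42, and 11.15 and 11.34. It fell by 0.93 ± 0.10 at 24 h in WT cells (adjusted p = 0.000278) and by 0.83 ± 0.10 in transgenic cells (adjusted p = 0.000667).

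Both 24 h calls of the pair held without any 1 array and under each other setting tried. The 6 h rise of Ezh2 did not. In WT cells it ended without the unmarked array at 6 h or the array marked Rep at 0 h (adjusted p up to 0.0704) or all 3 arrays marked Rep (0.0516), and in transgenic cells without the unmarked array at 6 h (0.0687). Its rise from 6 h to 24 h ended in transgenic cells without the unmarked array at 24 h or the array marked Rep at 6 h (adjusted p up to 0.0602). In WT cells that step lost its call only without all 3 arrays marked Rep (0.0618).

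Of 10 measured partners of Ezh1 and Ezh2 in that complex, 4 rose and 1 fell at 24 h in WT cells, and 3 rose and 1 fell in transgenic cells. The WT count was 1 and 1 without the 3 arrays marked Rep. The shares of all tested at 24 h (12.9% higher and 13.8% lower in WT, 12% and 11.8% in transgenic cells) are the background for this and the later lists. Phf19, an accessory subunit that recruits the complex to chromatin, rose by 1.86 ± 0.37 in WT cells (adjusted p = 0.00548) and 2.11 ± 0.37 in transgenic cells (adjusted p = 0.00361). Phf1, another accessory subunit that binds methylated H3K36, fell by 1.47 ± 0.14 (adjusted p = 0.000141) and 1.26 ± 0.14 (adjusted p = 0.000393). Rbbp7, a histone-binding subunit, rose by 0.70 ± 0.11 and 0.60 ± 0.11 (adjusted p = 0.00143 and 0.00383), and Eed, which binds the finished mark, by 0.52 ± 0.11 and 0.50 ± 0.11 (adjusted p = 0.0078 and 0.0119). The call of Eed ended without the WT array marked Rep at 24 h (0.0574), the unmarked transgenic array at 24 h or the transgenic array marked Rep at 0 h (up to 0.0911). Without all 3 WT arrays marked Rep the calls of Eed and Rbbp7 in WT cells were lost as well (0.103 and 0.0501).

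Among the arginine writers, 5 of 8 rose and 1 fell at 6 h in each genotype, with a median difference of 0.77 in WT cells. Of all tested probe sets 12.6% were called higher and 13.9% lower there in WT cells, and 12.5% and 12.9% in transgenic cells. Without the 3 WT arrays marked Rep, 5 rose and 0 fell in WT cells. Prmt1, the main source of asymmetric dimethylarginine, read 9.52 and 9.69 in WT cells at 0 h, 11.19 and 10.96 at 6 h and 10.72 and 10.90 at 24 h. In transgenic cells it read 9.65 and 9.44, then 11.15 and 11.02, then 10.64 and 10.57. Its rise to 6 h was 1.47 ± 0.12 in WT cells, 2.76-fold (limma adjusted p = 4.61e-05), and 1.54 ± 0.12 in transgenic cells, 2.91-fold (adjusted p = 4.32e-05). Prmt7, which monomethylates arginine, rose from 9.49 and 9.50 to 10.97 and 10.81 in WT cells, and from 9.30 and 9.26 to 10.89 and 10.84 in transgenic cells. Those are rises of 1.39 ± 0.12 (adjusted p = 5.16e-05) and 1.59 ± 0.12, 3.02-fold (adjusted p = 3.42e-05). Prmt3, an enzyme with a ribosomal protein substrate, rose at 6 h by 1.31 ± 0.11 and 1.25 ± 0.11 (adjusted p = 5.98e-05 and 8.15e-05). Prmt5, the main source of symmetric dimethylarginine, read 12.12 and 12.08 in WT cells at 0 h, 13.21 and 12.92 at 6 h and 13.02 and 13.06 at 24 h. Its rises were 0.96 ± 0.12 and 0.94 ± 0.12 (adjusted p = 0.000409 and 0.000651) in WT cells and 1.02 ± 0.12 and 0.94 ± 0.12 in transgenic cells (adjusted p = 0.000313 and 0.000886). From 6 h to 24 h no change passed, with a difference between those times of -0.02 ± 0.12 in WT cells and -0.08 ± 0.12 in transgenic ones, whose signs changed on leaving out 1 array.

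At 24 h all of Prmt1, Prmt3, Prmt5 and Prmt7 still stood above 0 h in both genotypes, by 0.66 to 1.20. These calls and those at 6 h held without any 1 array and under each other setting tried. Prmt3 fell back from 6 h to 24 h by 0.50 ± 0.11 in WT cells and 0.59 ± 0.11 in transgenic ones (adjusted p = 0.0202 and 0.00953). Prmt6, a nuclear enzyme that methylates histone H3 at arginine, rose at 6 h by 0.58 ± 0.13 and 0.50 ± 0.13 (adjusted p = 0.0107 and 0.0224) and fell back. At 24 h it differed from 0 h by less than its error (0.09 ± 0.13 in WT cells), with a sign that changed on leaving out 1 array. Prmt9, which methylates a splicing factor, did the reverse. WT arrays read 9.59 and 9.85 at 0 h, 9.08 and 9.12 at 6 h and 9.64 and 9.69 at 24 h, while the transgenic ones read 9.64 and 9.66, 9.14 and 8.64, and 9.72 and 9.61. Its fall at 6 h was 0.62 ± 0.15 in WT cells (adjusted p = 0.0138) and 0.77 ± 0.15 in transgenic cells (adjusted p = 0.00462). Prmt2, a nuclear receptor coactivator, fell at 24 h, from 9.33 and 9.64 to 8.09 and 8.62 in WT cells (-1.13 ± 0.19, adjusted p = 0.00204) and from 9.25 and 9.36 to 8.24 and 8.46 in transgenic cells (-0.96 ± 0.19, adjusted p = 0.00575). At 6 h its WT difference of -0.53 ± 0.19 passed only with the mark Rep as a block (adjusted p = 0.0665, and 0.017 with the block). Prmt8 passed in none of the comparisons. The 6 h calls of Prmt6 and Prmt9 and each call from 6 h to 24 h in this family ended without at least 1 array of the groups compared, except the 6 h fall of Prmt9 in transgenic cells.

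Of 6 measured partners of arginine writers, 2 rose and 2 fell at 24 h in each genotype, and in WT cells also without the 3 arrays marked Rep. Wdr77 and Clns1a, both partners of Prmt5, rose by 0.86 ± 0.11 and 0.76 ± 0.11 in WT cells (adjusted p = 0.000584 and 0.0011) and by 0.78 ± 0.11 each in transgenic cells (adjusted p = 0.00117 and 0.00127). Btg1 and Btg2, antiproliferative proteins that bind Prmt1, fell by 0.56 ± 0.09 and 1.31 ± 0.15 in WT cells (adjusted p = 0.00178 and 0.000313) and by 0.43 ± 0.09 and 1.10 ± 0.15 in transgenic cells (adjusted p = 0.00841 and 0.000963). The call of Btg1 in transgenic cells ended without the array marked Rep at 0 h (0.0648).

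The H3K4 writers fell at 24 h. All 10 probe sets of the 8 genes were called lower at 24 h in WT cells, with a median difference of -0.767, and 9 of 10 in transgenic cells, with a median of -0.726, where 13.8% and 11.8% of all tested were called lower. Without the 3 WT arrays marked Rep the WT count was 8 of 10. Kmt2d, which with Kmt2c places monomethylated H3K4 at enhancers, fell in both of its probe sets, by 0.89 ± 0.12 and 1.03 ± 0.13 in WT cells (adjusted p = 0.000782 and 0.000467) and by 0.99 ± 0.12 and 1.0 ± 0.13 in transgenic cells (adjusted p = 0.000668 and 0.000741). The brighter of the probe sets read 12.43 and 12.55 at 0 h, 11.74 and 12.01 at 6 h and 11.51 and 11.41 at 24 h in WT cells, without overlap between 0 h and either later time. Kmt2c fell most at 6 h. WT arrays read 11.88 and 12.01 at 0 h, 10.28 and 10.85 at 6 h and 10.99 and 10.97 at 24 h. In transgenic cells it read 11.88 and 12.02, 10.51 and 10.81, and 10.96 and 11.19. The 6 h differences were -1.38 ± 0.18 in WT cells (adjusted p = 0.000471) and -1.29 ± 0.18 in transgenic cells (adjusted p = 0.000687), falls of 2.59-fold and 2.45-fold. At 24 h they were -0.97 ± 0.18 and -0.88 ± 0.18 (adjusted p = 0.00381 and 0.00725).

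Kmt2a, the promoter H3K4 writer known from leukaemia translocations, read 12.90 and 13.11 in WT cells at 0 h, 12.17 and 12.64 at 6 h and 11.99 and 12.12 at 24 h. It was lower at 24 h by 0.95 ± 0.18 (adjusted p = 0.00442), and in transgenic cells by 0.80 ± 0.18 (adjusted p = 0.0117). Its paralog Kmt2b fell by 0.67 ± 0.08 and 0.54 ± 0.08 (adjusted p = 0.000568 and 0.00196), and Kmt2e, a family member with little activity of its own, by 0.53 ± 0.11 and 0.59 ± 0.11 (adjusted p = 0.0057 and 0.00415). Setd1b, the catalytic subunit of a COMPASS complex that places trimethylated H3K4 at promoters, differed little from 0 h at 6 h (-0.17 ± 0.12 and -0.21 ± 0.13 in WT cells, neither past the threshold). At 24 h it was lower by 0.77 ± 0.12 and 0.77 ± 0.13 in its 2 probe sets (adjusted p = 0.00159 and 0.00193). In transgenic cells those 24 h differences were -0.70 ± 0.12 and -0.75 ± 0.13 (adjusted p = 0.00307 and 0.00275). Setd7, a monomethylase of H3K4 and of other proteins, read 11.68 and 11.62 in WT cells at 0 h, 10.74 and 10.70 at 6 h and 11.11 and 11.05 at 24 h. It had fallen by 0.93 ± 0.08 at 6 h in WT cells and 0.92 ± 0.08 in transgenic ones (adjusted p = 7.36e-05 and 8.12e-05) and by 0.58 ± 0.08 and 0.57 ± 0.08 at 24 h (adjusted p = 0.00111 and 0.00148). Setd1a, the paralog of Setd1b, was 0.22 ± 0.07 higher at 6 h and 0.22 ± 0.07 lower at 24 h in WT cells (adjusted p = 0.0489 and 0.0465). Both calls ended on leaving out any of the 12 arrays (up to 0.224). In transgenic cells its differences were 0.15 ± 0.07 and -0.22 ± 0.07, neither past the threshold.

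Of the 24 h calls of the H3K4 writers, those of Kmt2a and Kmt2c in transgenic cells ended without the unmarked array at 24 h or the array marked Rep at 0 h (adjusted p up to 0.0952 and 0.0612). The WT call of 1 Setd1b probe set was lost without all 3 WT arrays marked Rep (0.0545). At 6 h the falls of Kmt2c, Setd7 and the brighter Kmt2d probe set held in both genotypes without any 1 array, as did that of Kmt2e in transgenic cells. Those of Kmt2a, Kmt2b and the dimmer Kmt2d probe set, and that of Kmt2e in WT cells, ended without at least 1 array (up to 0.285).

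The 12 measured partners of the COMPASS and Kmt2 complexes gave 4 rises and 1 fall at 24 h in WT cells, and 3 rises and 1 fall in transgenic cells. In WT cells 0 rose and 1 fell without the 3 arrays marked Rep. Wdr5, a scaffold shared by these complexes, rose by 0.60 ± 0.10 and 0.47 ± 0.10 (adjusted p = 0.00239 and 0.00941), and Dpy30, another shared subunit, by 0.55 ± 0.14 and 0.56 ± 0.14 (adjusted p = 0.0194 and 0.0204). Hcfc1, a subunit of the Setd1 complexes, rose by 0.32 ± 0.07 and 0.26 ± 0.07 (adjusted p = 0.00674 and 0.0225). Ncoa6, a subunit of the Kmt2c and Kmt2d complexes, fell by 0.62 ± 0.11 and 0.68 ± 0.11 (adjusted p = 0.00239 and 0.00196). Without all 3 WT arrays marked Rep the WT calls of Wdr5, Dpy30 and Hcfc1 ended (0.0733, 0.111 and 0.152). In transgenic cells those of Wdr5, Dpy30 and Hcfc1 ended without at least 1 array (up to 0.15). In WT cells the call of Dpy30 ended without any 1 of the 4 arrays compared (up to 0.0996).

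**Figure D2:**
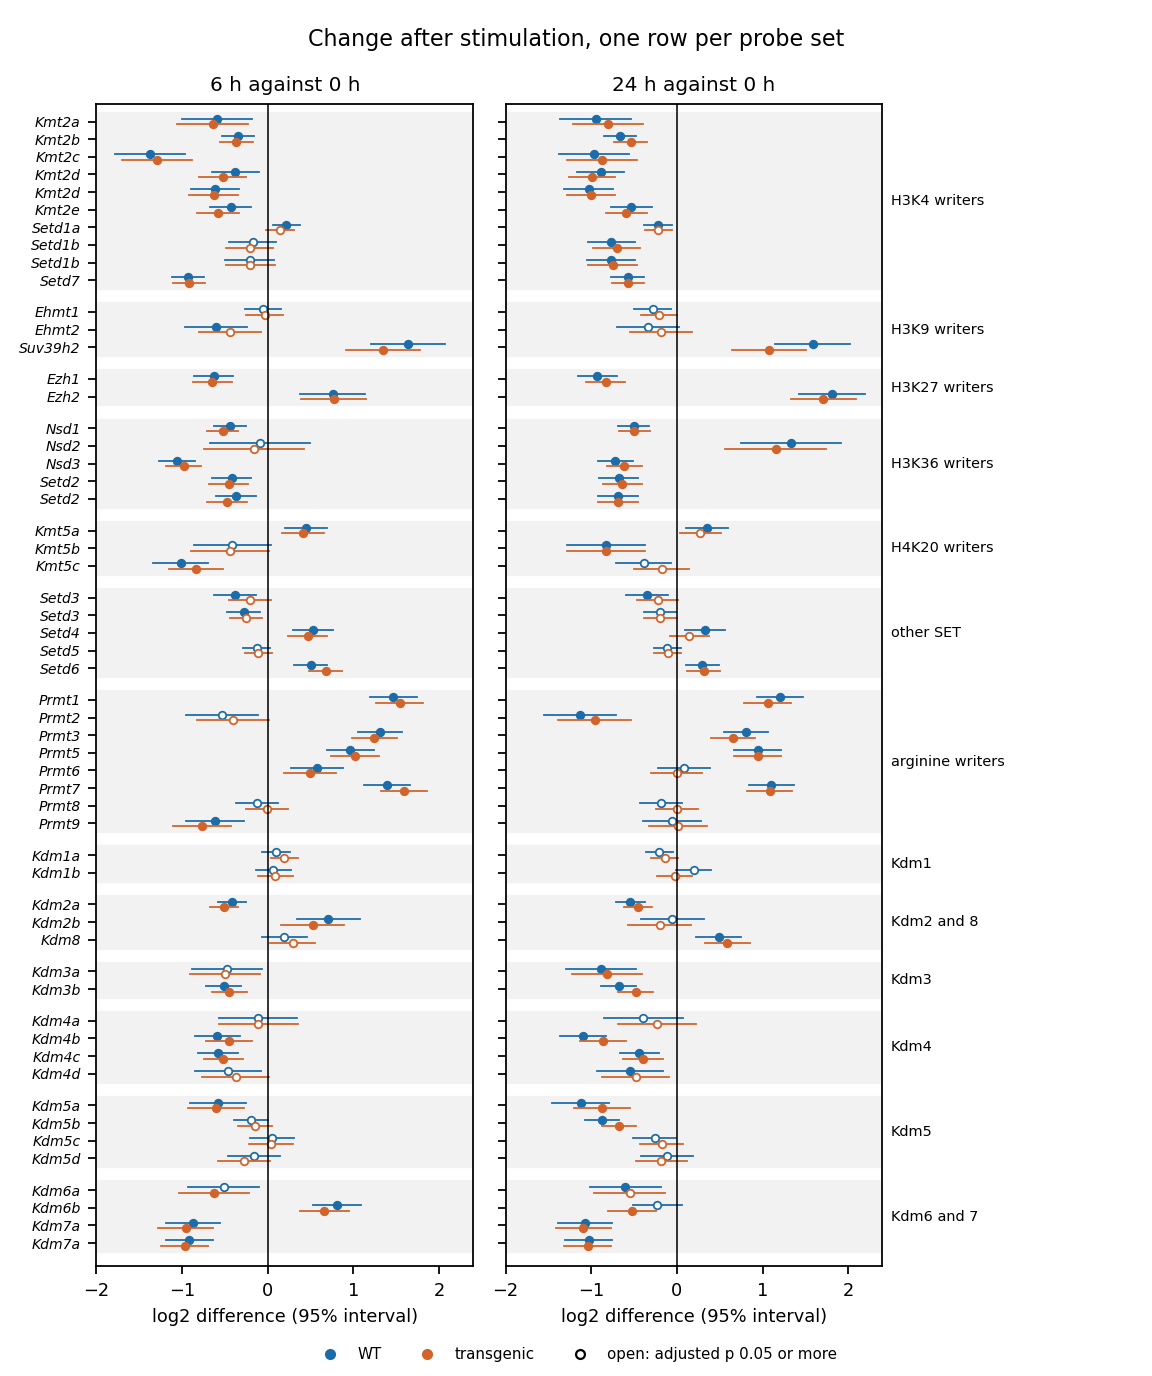
Log2 differences from 0 h at 6 h (left) and 24 h (right) with 95% intervals for each of the 55 probe sets, grouped by the residue written or the eraser family; blue is WT, orange transgenic, and open circles did not pass. In the 24 h panel the 10 H3K4 writer rows lie left of 0 in both genotypes, while Ezh2 lies farthest to the right at 1.81 and 1.71.

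The H3K36 writers split at 24 h: 1 of 5 probe sets rose and 4 fell in both genotypes, and 1 rose and 2 fell in WT cells without the 3 arrays marked Rep. Among all tested probe sets 12.9% were called higher and 13.8% lower at 24 h in WT cells, and 12% and 11.8% in transgenic cells. Nsd2, which places dimethylated H3K36, read 9.42 and 9.47 at 0 h, 9.31 and 9.41 at 6 h and 11.02 and 10.53 at 24 h in WT cells. In transgenic cells it read 9.48 and 9.59, then 9.43 and 9.33, then 11.15 and 10.23. The arrays at 24 h stood above all the others, but they lay apart from each other, by more in transgenic cells. From 6 h to 24 h it rose by 1.42 ± 0.26 in WT cells, 2.67-fold (adjusted p = 0.00818), and by 1.31 ± 0.26 in transgenic cells (adjusted p = 0.0104). Against 0 h the rise was 1.33 ± 0.26 and 1.15 ± 0.26 (adjusted p = 0.00471 and 0.0113). It alone of the 55 rose only in the later interval, a pattern of 3.2% of all tested probe sets in WT and 3.26% in transgenic cells. Mki67, a marker of cycling cells, was also higher on the unmarked array at 24 h (12.32 and 10.69 in WT, 12.47 and 10.72 in transgenic cells). In WT cells it was so at 0 h (10.23 and 9.08) and 6 h (9.5 and 8.71) too, where the Nsd2 readings lay close together. Transgenic cells read 10.44 and 10.25 for Mki67 at 0 h, and 9.53 and 9.55 at 6 h. The part of cycling cells in the Nsd2 values was not tested. The WT rise of Nsd2 from 6 h ended without the unmarked array at 24 h (0.0628), and the transgenic rises ended without the array marked Rep at 6 h (0.0725) or, against 0 h, without either array at 0 h (up to 0.0665).

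Nsd3, the paralog of Nsd2, fell at 6 h from 12.95 and 12.97 to 11.88 and 11.92 in WT cells and from 12.85 and 12.97 to 11.97 and 11.89 in transgenic cells. Those falls were 1.06 ± 0.09 (adjusted p = 5.9e-05) and 0.98 ± 0.09 (adjusted p = 8.83e-05). At 24 h it stood lower than at 0 h by 0.72 ± 0.09 and 0.61 ± 0.09 (adjusted p = 0.000592 and 0.00162). Nsd1 was lower at 24 h by 0.51 ± 0.08 and 0.50 ± 0.08 (adjusted p = 0.00184 and 0.00262), values already present at 6 h (-0.44 ± 0.08 and -0.53 ± 0.08, adjusted p = 0.00347 and 0.00133). Setd2, the enzyme of trimethylated H3K36, fell at 24 h by 0.68 ± 0.10 and 0.69 ± 0.10 in its probe sets in WT cells and by 0.64 ± 0.10 and 0.69 ± 0.10 in transgenic cells (adjusted p between 0.00121 and 0.00213). The 6 h calls of Setd2 ended without the unmarked WT array at 6 h or the WT array marked Rep at 0 h (up to 0.183), and without either unmarked transgenic array at 0 h or 6 h (up to 0.0671). Without all 3 WT arrays marked Rep, the WT calls of Nsd1 (0.0901 and 0.0767) and of 1 Setd2 probe set at 24 h (0.0561) were lost.

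Suv39h2, an H3K9 writer of pericentric heterochromatin, rose from a low reading. WT arrays read 5.55 and 5.99 at 0 h, 7.31 and 7.51 at 6 h and 7.30 and 7.41 at 24 h. Transgenic cells gave 6.06 and 6.19, 7.50 and 7.45, and 7.49 and 6.91. Its rise to 6 h was 1.64 ± 0.19 in WT cells (adjusted p = 0.000259), and 1.35 ± 0.19 in transgenic cells (adjusted p = 0.000766), and to 24 h 1.58 ± 0.19 and 1.08 ± 0.19 (adjusted p = 0.00046 and 0.00371). All 4 calls held without any 1 array and under each other setting tried. The WT readings at 0 h lie near the lower quartile of the arrays (5.81), and the transgenic ones just above it. Any effect of such low readings on the size of the rises was not tested. Ehmt1 and Ehmt2, which form the complex that dimethylates H3K9 in euchromatin, did not rise. Ehmt1 read 9.84 to 10.22 on all arrays and passed in none of the comparisons. Ehmt2 read 10.78 and 10.77 in WT cells at 0 h and 10.40 and 9.95 at 6 h, a fall of 0.60 ± 0.16 (adjusted p = 0.0212) that ended without either WT array at 0 h or the array marked Rep at 6 h (up to 0.134). In transgenic cells the 6 h difference was -0.44 ± 0.16 (adjusted p = 0.0763, and 0.0263 with the mark Rep as a block).

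Readers and partners of H3K9 methylation were measured with 9 genes, of which 4 rose and 2 fell at 24 h in each genotype (3 and 1 in WT cells without the 3 arrays marked Rep). Uhrf1, which links this mark to DNA methylation at replication, rose by 3.38 ± 0.34 in WT cells and 3.28 ± 0.34 in transgenic ones (adjusted p = 0.000217 and 0.000362). Cbx5, the heterochromatin protein HP1 alpha, rose by 1.51 ± 0.15 and 1.48 ± 0.15 (adjusted p = 0.000217 and 0.000351), and Cbx3, its paralog HP1 gamma, by 0.72 ± 0.10 and 0.63 ± 0.10 (adjusted p = 0.000946 and 0.00228). Atf7ip, which stabilises the H3K9 writer Setdb1, fell by 0.47 ± 0.08 and 0.37 ± 0.08 (adjusted p = 0.00247 and 0.00982), in transgenic cells a call that ended without the unmarked array at 0 h or 24 h (up to 0.071).

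The H4K20 writers differed from each other. Kmt5a, which places the first methyl group on lysine 20 of histone H4 and acts in the cell cycle, rose at 6 h by 0.45 ± 0.11 in WT cells and 0.41 ± 0.11 in transgenic ones (adjusted p = 0.0124 and 0.0196). WT arrays read 11.71 and 11.63 at 0 h, 12.17 and 12.07 at 6 h and 12.05 and 11.99 at 24 h. The 24 h difference passed in WT cells (0.35 ± 0.11, adjusted p = 0.0397). In transgenic cells it passed only with the mark Rep as a block (0.28 ± 0.11, adjusted p = 0.104, and 0.0309 with the block). Kmt5b and Kmt5c add further methyl groups to the residue. Kmt5b fell at 24 h by 0.82 ± 0.20 in each genotype (adjusted p = 0.0144 and 0.0165). At 6 h it read -0.41 ± 0.20 and -0.44 ± 0.20. Those values passed only with the block (adjusted p = 0.187 and 0.164, and 0.00371 and 0.0028 with it). Kmt5c dropped at 6 h, from 10.60 and 10.36 to 9.42 and 9.52 in WT cells (-1.01 ± 0.14, adjusted p = 0.000681) and from 10.38 and 10.29 to 9.61 and 9.39 in transgenic cells (-0.84 ± 0.14, adjusted p = 0.00204). It then rose again by 0.63 ± 0.14 and 0.66 ± 0.14 (adjusted p = 0.0199 and 0.015). The 6 h falls of Kmt5c held without any 1 array. The calls of Kmt5a, those of Kmt5b at 24 h and the later rise of Kmt5c ended without at least 1 array of the groups compared (up to 0.172, 0.121 and 0.132).

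The remaining SET domain proteins have mainly other substrates. Setd6, which methylates the NF-kappaB subunit RelA, rose at 6 h by 0.50 ± 0.09 in WT cells and 0.68 ± 0.09 in transgenic ones (adjusted p = 0.00197 and 0.000396) and stood higher at 24 h by 0.30 ± 0.09 and 0.31 ± 0.09 (adjusted p = 0.0299 and 0.0263). Setd4 rose at 6 h by 0.53 ± 0.10 and 0.47 ± 0.10 (adjusted p = 0.00417 and 0.00845). Setd3, an actin histidine methylase, fell at 6 h in WT cells in both probe sets (-0.38 ± 0.11 and -0.28 ± 0.08, adjusted p = 0.0268 and 0.0355). These calls ended on leaving out any of 3 arrays for the first probe set and any of 7 for the second (up to 0.159 and 0.206). Its transgenic differences of -0.20 ± 0.11 and -0.25 ± 0.08 did not pass. Setd5 read 12.04 to 12.23 on all arrays and passed in no comparison. The 6 h rises of Setd6 held without any 1 array. Without all 3 WT arrays marked Rep the 6 h calls of Setd6 and Setd4 in WT cells were lost (0.064 and 0.0551). The transgenic 6 h call of Setd4 ended without the unmarked array at 0 h or the array marked Rep at 6 h (up to 0.0666). The 24 h calls of Setd6 ended in WT cells without either array at 0 h or 24 h. In transgenic cells its call ended without the unmarked arrays at 0 h and 24 h or the array marked Rep at 0 h.

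Among the 19 eraser probe sets, 1 rose and 11 fell at 24 h in WT cells, with a median difference of -0.542, and 1 rose and 10 fell in transgenic cells, with a median of -0.479. Of all tested probe sets 12.9% were called higher and 13.8% lower in WT cells, and 12% and 11.8% in transgenic cells. Without the 3 WT arrays marked Rep, 0 erasers rose and 8 fell in WT cells. The WT calls lost were those of Kdm4c, Kdm4d, Kdm6a and Kdm8. Kdm6b, the stimulus-induced eraser of H3K27 methylation, ran through a peak. WT arrays read 12.04 and 11.92 at 0 h, 12.70 and 12.89 at 6 h and 11.71 and 11.79 at 24 h. The transgenic readings were 12.11 and 11.99, 12.59 and 12.84, and 11.39 and 11.67. It rose at 6 h by 0.81 ± 0.12 and 0.66 ± 0.12 (adjusted p = 0.00112 and 0.00361), then fell by 1.04 ± 0.12 and 1.18 ± 0.12 (adjusted p = 0.00148 and 0.000816). These 4 calls held without any 1 array, but the WT rise at 6 h was not called without all 3 WT arrays marked Rep (0.0551). At 24 h it was below 0 h by 0.23 ± 0.12 in WT cells, short of the threshold (adjusted p = 0.232), and by 0.52 ± 0.12 in transgenic cells (adjusted p = 0.0149, and up to 0.117 without either unmarked transgenic array at 0 h or 24 h). Kdm6a, its X-linked paralog, read 11.49 and 11.58 in WT cells at 0 h, 10.81 and 11.23 at 6 h and 10.83 and 11.04 at 24 h. Its 24 h difference was -0.60 ± 0.18 in WT cells (adjusted p = 0.0379) and -0.55 ± 0.18 in the transgenic ones (adjusted p = 0.0582, and 0.00631 with the mark Rep as a block). The 6 h difference was -0.51 ± 0.18 in WT cells (adjusted p = 0.0694, and 0.00759 with the block) and -0.63 ± 0.18 in transgenic cells (adjusted p = 0.0327). The WT call of Kdm6a at 24 h ended on leaving out any of 6 arrays (up to 0.174) and its transgenic call at 6 h on leaving out any of 3 (up to 0.21).

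Kdm7a, an eraser of H3K9 and H3K27 methylation, fell in both of its probe sets. The first read 12.40 and 12.39 in WT cells at 0 h, 11.34 and 11.71 at 6 h and 11.43 and 11.22 at 24 h. The falls were 0.87 ± 0.14 and 0.91 ± 0.12 at 6 h and 1.07 ± 0.14 and 1.03 ± 0.12 at 24 h in WT cells (adjusted p between 0.000383 and 0.00154). They were 0.96 ± 0.14, 0.97 ± 0.12, 1.09 ± 0.14 and 1.04 ± 0.12 in transgenic cells (adjusted p between 0.000364 and 0.00097). These 8 calls held without any 1 array and under each other setting tried. The 2 probe sets differed by at most 0.08 in each comparison over time.

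Kdm5 enzymes remove trimethylated H3K4. Kdm5a fell at 24 h by 1.12 ± 0.15 in WT cells and 0.87 ± 0.15 in transgenic ones (adjusted p = 0.000654 and 0.00274). Its WT readings were 11.26 and 11.43 at 0 h, 10.58 and 10.95 at 6 h and 10.22 and 10.23 at 24 h. Kdm5b differed by -0.20 ± 0.09 and -0.14 ± 0.09 at 6 h, short of the threshold, and was lower at 24 h by 0.87 ± 0.09 and 0.68 ± 0.09 (adjusted p = 0.000202 and 0.000874). Of the sex-linked pair, the X-linked Kdm5c read 11.04 to 11.50 over the 12 arrays and the Y-linked Kdm5d 9.41 to 9.96, and neither passed in any comparison. The Y-linked Eif2s3y read 9.98 to 10.48 and Xist 10.55 to 12.23, both above the lower quartile on all arrays. The Y-linked Zfy1 and Zfy2 were below it on all arrays. The sex of the mice is not given, and its part in the levels of these genes was not tested.

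Of the 6 Kdm3 and Kdm4 enzymes, erasers of H3K9 methylation among other marks, 5 fell at 24 h in WT cells (3 without the 3 arrays marked Rep) and 4 in transgenic cells. At 24 h, 13.8% and 11.8% of all tested probe sets were called lower in WT and transgenic cells. Without the 40% dimmest these shares were 20.6% and 17.7%. Kdm4b was lower at 24 h by 1.10 ± 0.12 in WT cells, 2.14-fold (adjusted p = 0.000272), and by 0.86 ± 0.12 in transgenic cells (adjusted p = 0.00109). The WT arrays read 10.87 and 11.04 at 0 h, 10.28 and 10.46 at 6 h and 9.78 and 9.95 at 24 h. Kdm3b fell by 0.68 ± 0.09 and 0.48 ± 0.09 (adjusted p = 0.000698 and 0.0047), and its paralog Kdm3a by 0.89 ± 0.18 and 0.82 ± 0.18 (adjusted p = 0.0059 and 0.0106). At 6 h the Kdm3a differences of -0.47 ± 0.18 and -0.50 ± 0.18 passed only with the mark Rep as a block (adjusted p = 0.0889 and 0.077, and 0.00453 and 0.00354 with it). Kdm4c fell at 6 h by 0.58 ± 0.10 and 0.52 ± 0.10 (adjusted p = 0.00259 and 0.00502) and stood 0.44 ± 0.10 and 0.39 ± 0.10 lower at 24 h (adjusted p = 0.0122 and 0.0223). Kdm4d was lower at 24 h in WT cells (-0.55 ± 0.17, adjusted p = 0.0433). That call ended on leaving out any of 8 arrays (up to 0.271). Kdm4a passed only with the block, at 24 h in WT cells (-0.39 ± 0.20, adjusted p = 0.206, and 0.0294 with it). The 24 h calls of Kdm3a in transgenic cells (up to 0.082) and of Kdm4c (up to 0.094 and 0.147) ended without the unmarked array at 24 h or the array marked Rep at 0 h of that genotype. That of Kdm4c in transgenic cells also ended without the unmarked array at 0 h.

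The erasers of H3K36 methylation went separate ways. Kdm2a fell at 6 h by 0.41 ± 0.07 in WT cells and 0.51 ± 0.07 in transgenic ones (adjusted p = 0.00245 and 0.000761). At 24 h it was 0.54 ± 0.07 and 0.46 ± 0.07 lower (adjusted p = 0.000754 and 0.0022), and all 4 calls held without any 1 array. Without all 3 WT arrays marked Rep the WT call at 6 h was lost (0.0852). Kdm2b, which also ties Polycomb repressive complex 1 to unmethylated CpG islands, rose at 6 h by 0.71 ± 0.16 and 0.53 ± 0.16 (adjusted p = 0.0104 and 0.0415). By 24 h it differed from 0 h by -0.05 ± 0.16 and -0.20 ± 0.16, the first with a sign that changed without the WT array marked Rep at 0 h. Kdm8 rose at 24 h by 0.49 ± 0.12 and 0.59 ± 0.12 (adjusted p = 0.0128 and 0.00623), from 8.29 and 8.44 to 8.90 and 8.81 in WT cells. The calls of Kdm2b and Kdm8 ended without at least 1 array, among them the unmarked arrays at 0 h (up to 0.251 and 0.0832). Kdm1a and Kdm1b, the flavin-dependent erasers of H3K4 methylation, did not differ from 0 h past the threshold at 6 h or 24 h, save Kdm1a at 24 h in WT cells with the block (-0.20 ± 0.07, adjusted p = 0.0621, and 0.0477 with it). Kdm1a fell from 6 h to 24 h by 0.30 ± 0.07 and 0.33 ± 0.07 (adjusted p = 0.0231 and 0.0139), calls that ended without any 1 of the 4 arrays compared (up to 0.131).

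Partners of Kdm1a in corepressor complexes were measured with 7 genes, of which 1 rose and 4 fell at 24 h in WT cells and 1 rose and 2 fell in transgenic cells. The WT count was also 1 and 2 without the 3 arrays marked Rep. Gfi1, a repressor that recruits Kdm1a, rose by 1.48 ± 0.12 and 0.96 ± 0.12 (adjusted p = 9.02e-05 and 0.000684). Rcor3, a corepressor subunit, fell by 0.89 ± 0.10 and 0.64 ± 0.10 (adjusted p = 0.000398 and 0.00244), and Phf21a, a reader of unmethylated H3K4, by 0.65 ± 0.10 and 0.46 ± 0.10 (adjusted p = 0.00142 and 0.00981). Zfp217 fell by 0.51 ± 0.13 in WT cells (adjusted p = 0.0161) and read -0.28 ± 0.13 in transgenic cells (adjusted p = 0.16). The WT call of Zfp217 and the transgenic call of Phf21a ended without at least 1 array (up to 0.0839 and 0.0792).

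**Figure D3:**
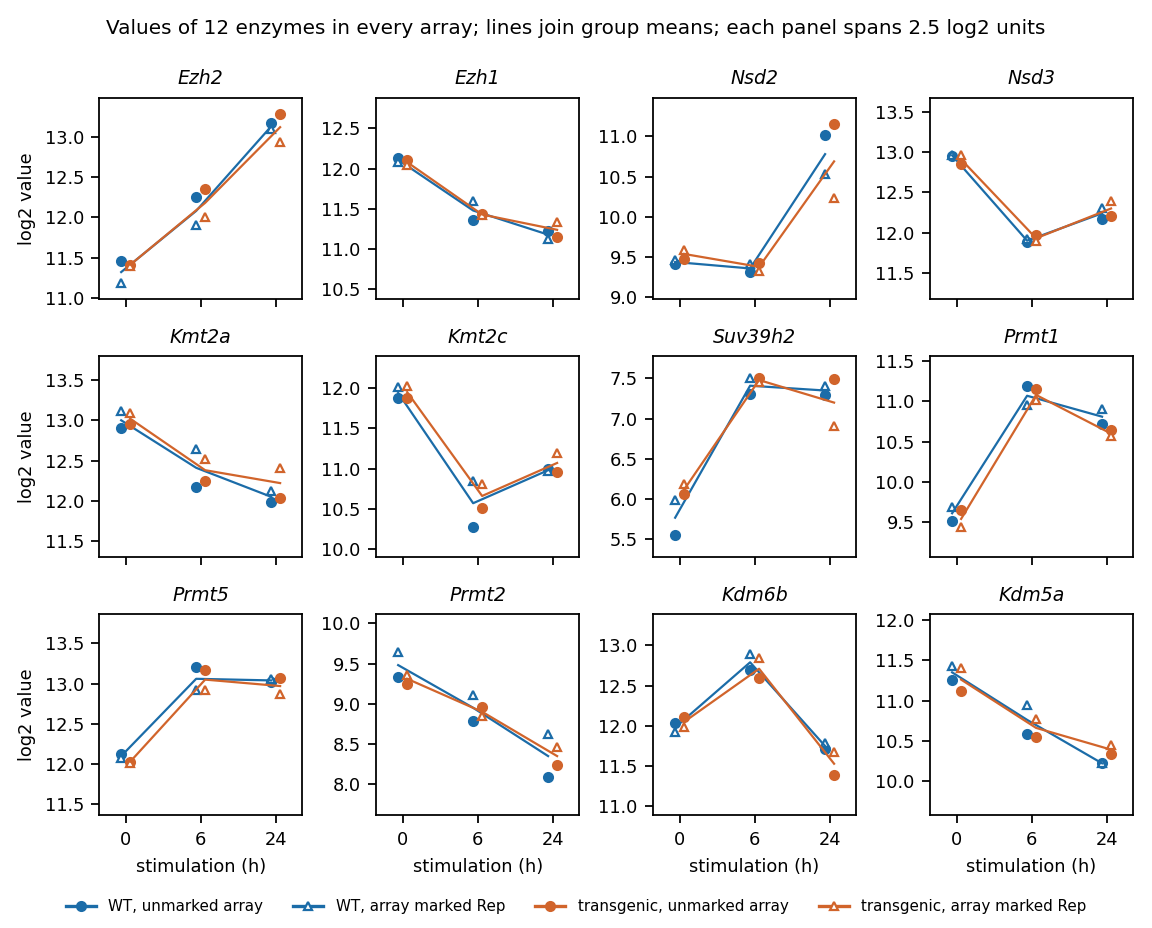
Log2 values of 12 enzymes on every array at 0, 6 and 24 h; filled circles are unmarked arrays, open triangles arrays marked Rep, blue WT and orange transgenic, and lines join group means. Ezh2 climbs at each step to between 12.94 and 13.29, Kdm6b peaks at 6 h between 12.59 and 12.89, and Nsd2 moves only at 24 h, with the unmarked arrays above those marked Rep.

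The tests of both intervals together give a time pattern for each probe set. A rise to 6 h followed by a fall was passed in both genotypes by Kdm2b, Kdm6b, Prmt3 and Prmt6, a pattern of 2.8% of all tested probe sets in WT and 3.61% in transgenic cells. The reverse, a fall followed by a rise, was passed in both by Kmt5c, Nsd3, Prmt9 and Setd7 (3.93% and 4.35% of all tested). A fall in the later interval alone was passed in both by Kdm1a, Kdm5b and both Setd1b probe sets (2.66% and 2.5%). Falls in both intervals were passed by Kdm4b, Kdm5a, Kmt2b and 1 Kmt2d probe set in WT cells and by that Kmt2d probe set in transgenic cells (0.397% and 0.308%). In WT cells 13 and in transgenic cells 15 of the 55 passed in neither interval, where 67.6% and 68.9% of all tested did. These patterns lean on the later interval, whose counts of 19 in each genotype were the least stable: without 1 array the count was as low as 4 in WT cells (the unmarked array at 24 h) and 3 in transgenic cells (the array marked Rep at 6 h). It was 6 without the WT array marked Rep at 6 h, 12 without either the unmarked WT array at 6 h or the WT array marked Rep at 24 h, and 5 and 10 without the unmarked transgenic arrays at 24 h and 6 h.

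The start sites of the genes that rose and fell were compared in sequence. Of the 50 genes, 39 have an entry in the RefSeq promoter table (GRCm38.p6), which holds 300 bases per gene, 250 before and 50 after the start, for 27025 genes. Shown here are the 150 bases before the start of Ezh2, Prmt1, Prmt3 and Prmt5, which rose at 24 h in both genotypes, and of Ezh1, Kmt2a and Kmt2c, which fell. They were chosen after their values were seen. Sequences run 5′ to 3′ on the strand of the gene, and capitals mark CCAAT, the letters of the CCAAT box bound by NF-Y, in either direction (CCAAT or ATTGG), and CACGTG, the E-box bound by Myc and related factors.
Ezh2, chr6:47595031-47595180, minus strand: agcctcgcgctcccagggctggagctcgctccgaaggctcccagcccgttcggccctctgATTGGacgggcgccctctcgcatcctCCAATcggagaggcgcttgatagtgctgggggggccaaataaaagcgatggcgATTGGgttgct
Prmt1, chr7:44986421-44986570, minus strand: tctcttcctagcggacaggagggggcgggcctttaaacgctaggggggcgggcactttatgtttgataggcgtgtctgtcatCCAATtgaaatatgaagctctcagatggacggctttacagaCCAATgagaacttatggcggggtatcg
Prmt3, chr7:49778208-49778357, plus strand: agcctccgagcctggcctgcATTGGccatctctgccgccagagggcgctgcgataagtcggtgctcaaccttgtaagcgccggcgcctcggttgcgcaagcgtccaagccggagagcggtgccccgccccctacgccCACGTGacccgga
Prmt5, chr14:54517471-54517620, minus strand: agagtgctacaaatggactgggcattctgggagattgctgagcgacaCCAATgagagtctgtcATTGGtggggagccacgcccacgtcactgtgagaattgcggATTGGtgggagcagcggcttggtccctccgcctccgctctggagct
Ezh1, chr11:101226464-101226613, minus strand: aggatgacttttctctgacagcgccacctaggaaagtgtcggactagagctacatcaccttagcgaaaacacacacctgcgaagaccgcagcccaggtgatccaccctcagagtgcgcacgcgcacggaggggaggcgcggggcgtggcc
Kmt2a, chr9:44881290-44881439, minus strand: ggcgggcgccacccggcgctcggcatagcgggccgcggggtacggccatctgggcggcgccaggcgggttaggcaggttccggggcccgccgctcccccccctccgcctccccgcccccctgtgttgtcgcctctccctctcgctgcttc
Kmt2c, chr5:25498784-25498933, minus strand: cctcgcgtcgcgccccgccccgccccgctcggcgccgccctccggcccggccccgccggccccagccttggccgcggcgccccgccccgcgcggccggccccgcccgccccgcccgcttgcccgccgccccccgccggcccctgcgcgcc

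The stretches of Ezh2 and Prmt5 hold 3 CCAAT matches each, that of Prmt1 holds 2 and that of Prmt3 holds 1 beside a CACGTG, while those of Ezh1, Kmt2a and Kmt2c hold none. At 24 h, 9 genes rose and 21 fell in both genotypes, of which only 8 and 12 have an entry. In the full 300 bases, CCAAT was found on either strand in 5 of those 8 (62.5%) and in 2 of those 12 (16.7%). Among genes not shown, Prmt7, Setd6 and Suv39h2 rose and lacked it, while Kdm3a and Prmt2 fell and held it. The contrast of the stretches shown therefore follows in part from which genes were shown. CCAAT was found in 16 of all 39 enzymes (41.0%) and in 41.1% of all genes of the table. CACGTG was found in 2 of the 8, Prmt1 and Prmt3, in 1 of the 12, Kdm4c, in 5 of the 39 (12.8%) and in 8.09% of all genes. An E2F octamer (TTTCGCGC, TTTCCCGC, TTTGGCGC or TTTGCCGC, either strand) was found in Ezh2 and Kmt5c (5.13% of the 39, against 2.6% of all genes), and GGGCGG, the GC box, in 25 of the 39 (64.1%, against 38.2%). The median GC content of the windows was 60.8% for the 8, 62.7% for the 12 and 52.8% for all genes. No motif searched contains another, the counts are small, and a match describes letters, not binding.

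WT and transgenic cells gave nearly the same response. Their arrays are separate samples, but arrays with the same mark deviated together, also across the genotypes. Among the 55 probe sets these deviations correlated at 0.0116 to 0.773 over 15 pairs of groups. The genotypes are therefore not independent repeats of each other. At 6 h, 33 probe sets passed in the same direction in both, 89.2% of the 37 called in WT and 97.1% of the 34 called in transgenic cells, and 0 passed in opposite directions. At 24 h against 0 h it was 34 (85% of 40 and 97.1% of 35), and from 6 h to 24 h 16 (84.2% of each 19), again with 0 opposite. The overlap of calls among all tested probe sets was not counted. Across the 55 probe sets, which are not independent replicates and share the arrays, the responses of the genotypes correlated with Pearson r = 0.988, 0.985 and 0.963 in these comparisons, where all tested probe sets gave 0.958, 0.934 and 0.918. At 24 h the calls in WT cells alone were Kdm4d, Kdm6a, Kmt5a, Setd1a, 1 Setd3 probe set and Setd4, and the call in transgenic cells alone was Kdm6b. At 6 h they were Ehmt2, Setd1a and both Setd3 probe sets in WT cells and Kdm6a in transgenic cells. From 6 h to 24 h Kdm4b, Kdm5a and Kmt2b passed in WT cells alone and Prmt1, Prmt7 and Setd6 in transgenic cells alone.

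**Figure D4:**
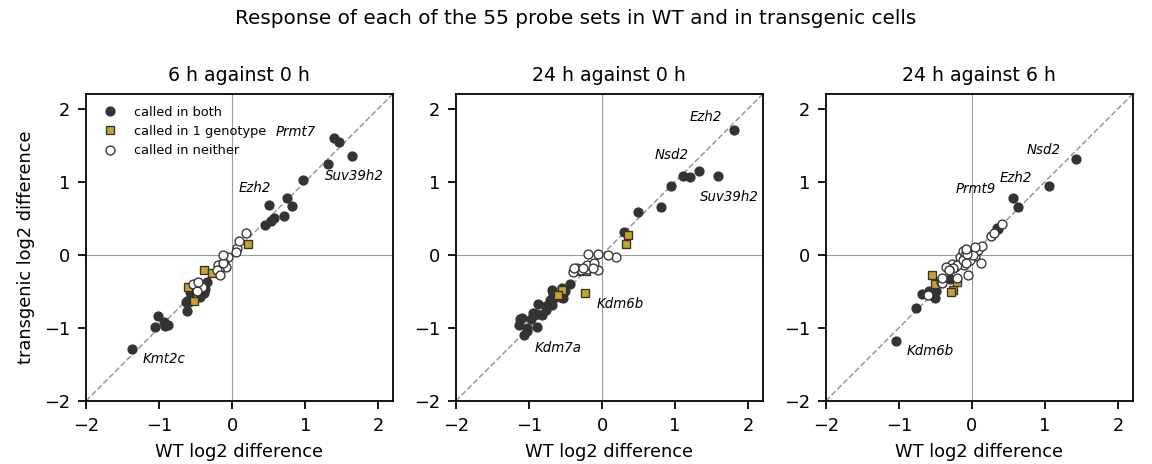
Each point is 1 of the 55 probe sets, with the WT log2 difference on the horizontal and the transgenic log2 difference on the vertical axis, for 3 pairs of times; the dashed line marks equal responses. Points called in both genotypes (dark circles, 33, 34 and 16 of them) lie along the line, and gold squares mark those called in 1 genotype.

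The difference in response between the genotypes was itself tested and passed for 0 of the 55 probe sets at 6 h and at 24 h, as for 0% of all 23410. At 6 h, 0 members had an unadjusted p under 0.05, and at 24 h also 0. The smallest p at 24 h was that of Suv39h2, whose rise was smaller in transgenic cells by 0.51, with a 95% interval from a difference of -1.12 to one of 0.10 (unadjusted p = 0.0927, adjusted p = 1). That difference rests on WT readings at 0 h near the lower quartile, and the effect of such low readings was not tested. Next were Kdm6b (-0.29), Kdm1b (-0.22), Kdm3b (0.20) and Kdm5b (0.20). At 6 h the smallest p belonged to Setd6 (0.18), Prmt7 (0.20), Setd3 (0.18), Kmt2e (-0.15) and Suv39h2 (-0.29). The 95% interval lay within 1 log2 unit of 0 for 55 probe sets at 6 h and for 53 at 24 h.

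Levels were compared between transgenic and WT cells at each time and over the 3 times, and 0 of the 55 passed in any of these comparisons, where 0.00854% of all tested probe sets were called at each time and 0.0256% over the 3 times. An unadjusted p under 0.05 was held by 1, 0 and 1 of them at 0, 6 and 24 h and by 2 over the 3 times. At 0 h that was Setd6, with 10.47 and 10.39 in WT and 10.22 and 10.22 in transgenic cells, a difference of -0.21 ± 0.09 (unadjusted p = 0.0369, adjusted p = 1). The next smallest p were those of Prmt7 (-0.22), Suv39h2 (0.35), Kdm4b (-0.18) and Kdm5d (0.19). At 6 h the 5 smallest were those of Prmt9 (-0.21), Prmt6 (-0.17), Kmt2d (-0.14), Kdm2a (-0.08) and Setd1a (-0.07). At 24 h Kdm1b read 10.05 and 10.21 in WT and 9.77 and 9.96 in transgenic cells. The difference was -0.27 ± 0.09 (unadjusted p = 0.0162, adjusted p = 1). Next came Setd6 (-0.19), Prmt7 (-0.24), Setd4 (-0.21) and Kdm6b (-0.22). Over the 3 times Setd6 was lower in transgenic cells by 0.14 ± 0.05 (unadjusted p = 0.0167) and Prmt7 by 0.16 ± 0.07 (unadjusted p = 0.0408). Both were short of the threshold (adjusted p at least 0.769, and at least 0.437 with the mark Rep as a block). The next were Kdm1b (-0.11), Prmt6 (-0.14) and Setd4 (-0.11).

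The 95% intervals rest on the spread between these samples, so they do not bound a difference between mice. They are also not adjusted for the number of probe sets. Ppp2ca itself, higher by 0.74, 0.39 and 0.60 at 0, 6 and 24 h, was not called at any single time. The difference between genotypes lay within 0.5 log2 units of 0, over its whole 95% interval, for 50, 51 and 47 of the 55 probe sets at 0, 6 and 24 h and for 55 over the 3 times, and within 1 unit for all 55 at each time. The counts of 0 stood in each alternative tried, among them the block and leaving out each array or the 3 WT arrays marked Rep.

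**Figure D5:**
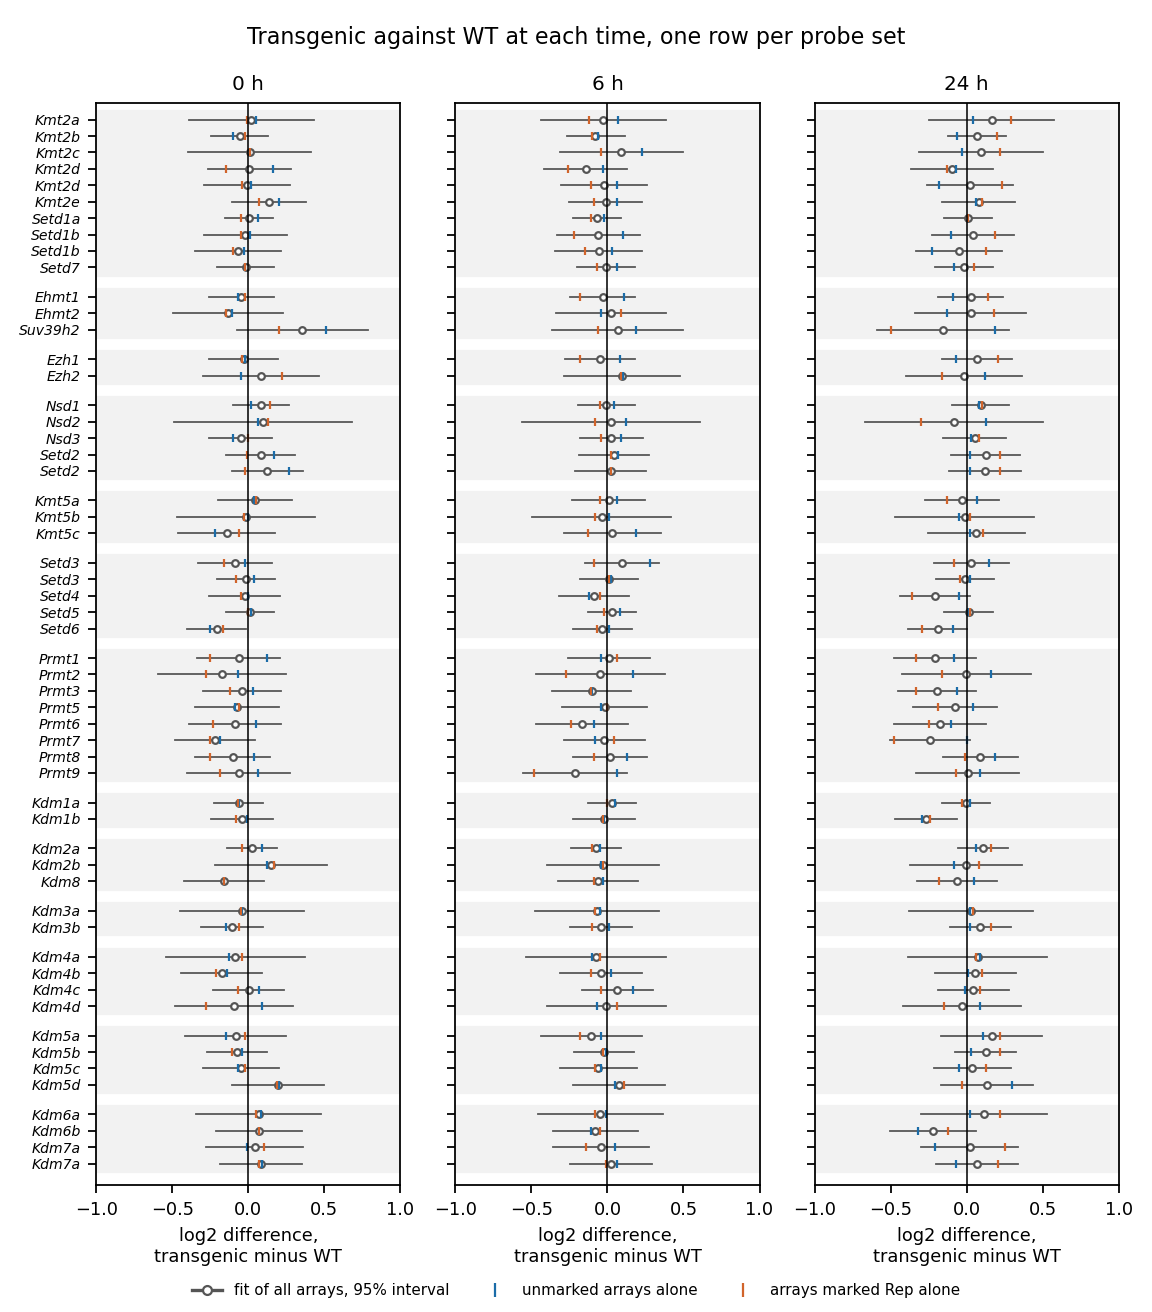
Circles and bars give the transgenic minus WT log2 difference with its 95% interval for each of the 55 probe sets at 0, 6 and 24 h; ticks give the difference within the unmarked arrays (blue) and within the arrays marked Rep (orange). Differences run from -0.22 to 0.35 at 0 h, from -0.21 to 0.10 at 6 h and from -0.27 to 0.17 at 24 h, and none passed.

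Enzymes of histone methylation that the name rule leaves out were also measured. Of 12 further methyltransferases, 4 rose and 2 fell at 24 h in WT cells, and 4 rose and 0 fell in transgenic cells (3 and 0 in WT cells without the 3 arrays marked Rep). Smyd2, a lysine writer with histone and other substrates, rose by 2.86 ± 0.17 in WT cells and 2.44 ± 0.17 in transgenic ones (adjusted p = 2.77e-05 and 8.13e-05), and Smyd5 by 1.71 ± 0.10 and 1.45 ± 0.10 (adjusted p = 2.72e-05 and 8.13e-05). Carm1, an arginine writer of histone H3, rose by 0.73 ± 0.09 and 0.51 ± 0.09 (adjusted p = 0.000587 and 0.00398), and Dot1l, the writer of lysine 79 of histone H3, by 0.47 ± 0.08 and 0.41 ± 0.08 (adjusted p = 0.00285 and 0.00714). Of 8 further demethylases 0 rose, and 2 fell in WT cells (1 without the 3 arrays marked Rep) and 1 in transgenic cells. Jmjd1c, a relative of the Kdm3 enzymes, fell by 0.59 ± 0.09 and 0.57 ± 0.09 (adjusted p = 0.00117 and 0.00182). Phf8, an eraser linked to ribosomal RNA genes, fell by 0.28 ± 0.08 in WT cells (adjusted p = 0.031), with -0.18 ± 0.08 in transgenic cells (adjusted p = 0.165). Uty read -0.43 ± 0.15 and -0.41 ± 0.15 and Jmjd6 0.34 ± 0.12 and 0.28 ± 0.12, none past the threshold. The call of Phf8 ended without any 1 of the 4 arrays compared (up to 0.136). That of Dot1l ended without all 3 WT arrays marked Rep (0.0795) or either unmarked transgenic array at 0 h or 24 h (up to 0.058).

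All these writers draw on S-adenosylmethionine. Its supply was measured with 9 genes, of which 4 rose and 1 fell at 24 h in WT and 5 rose and 1 fell in transgenic cells (3 and 1 in WT cells without the 3 arrays marked Rep). Mthfd1, which makes one-carbon folates, rose by 2.48 ± 0.12 and 2.22 ± 0.12 (adjusted p = 2.04e-05 and 5.48e-05). Mtap, of methionine salvage, rose by 1.0 ± 0.08 and 0.88 ± 0.08 (adjusted p = 9.73e-05 and 0.000268), and Mtrr, which keeps methionine synthase active, by 1.02 ± 0.19 and 0.78 ± 0.19 (adjusted p = 0.00349 and 0.0152). Mat2b, the regulatory subunit of the enzyme that makes S-adenosylmethionine, fell by 0.56 ± 0.07 and 0.44 ± 0.07 (adjusted p = 0.000625 and 0.00262). The transgenic call of Mtrr ended without any 1 of the 4 arrays compared (up to 0.0741).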

How the data were processed

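Total RNA of each sample was hybridised to 1 array after biotin end-labelling, per the labels' protocols. The authors deposited 1 log2 value per probe set and array (28853 probe sets, 3.49 to 15.38); the sources used here do not give their summary or normalisation steps. Array medians ran from 7.39 to 7.50, a range of 0.11, so values were quantile normalised. Symbols came from the platform annotation: 21789 probe sets had 1 symbol, 1621 several and 5443 none, and the 23410 with a symbol were tested in limma 3.58.1 (R 4.3.3) as 1 model with 6 group means (6 residual and 3.05 prior degrees of freedom), adjusting by Benjamini-Hochberg within each of 12 comparisons at 0.05. No member shares its probe set with another symbol.

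The name rule, the role groups and the partner lists were chosen with earlier results of these data known. Named are members past the threshold, the 5 of smallest p where fewer than 5 passed, the best-known enzymes, up to 4 genes per partner list by WT p at 24 h, and Ppp2ca; marker and activation genes serve as checks. Arrays with the same mark deviated together, so the mark was also fitted as a block. Over 15 pairs of groups the correlations were 0.138 to 0.591 for all tested probe sets and 0.0116 to 0.773 for the 55 members. The fit was also tested on simulated data, and no result here leans on that test. Plots used matplotlib 3.10.9 and tables pandas 2.3.3 (numpy 2.4.6, Python 3.11.15).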

Additional observations from a re-analysis of the deposited data

How the results depend on the processing

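Normalisation (none, or median centring), filtering (without the 40% dimmest, or with rows that lack a symbol), moderation (trended and robust), array weights, a fit of only the groups compared, the mark Rep as a block, and the arrays included (without each in turn, or without the 3 WT arrays marked Rep) were varied 1 at a time. Counts of called probe sets at 24 h against 0 h (40 in WT, 35 in transgenic cells) stayed between 27 and 43 and between 28 and 38. At 6 h the WT count of 37 was 19 without the 3 WT arrays marked Rep and 23 to 35 on leaving out 1 array, and the transgenic count of 34 was 24 to 38. From 6 h to 24 h the WT count of 19 was 3 without the 3 WT arrays marked Rep, 4 with only the groups compared and 4 to 19 on leaving out 1 array; the transgenic count of 19 was 12 with only the groups compared and 3 to 20 on leaving out 1 array. Called under every alternative were 16 of 37, 27 of 40 and 1 of 19 in WT cells and 21 of 34, 26 of 35 and 2 of 19 in transgenic cells, for 6 h and 24 h against 0 h and for 24 h against 6 h. With the mark Rep as a replicate block the 6 counts were 42, 43, 24, 38, 38 and 25 in the same order. The genotype and response comparisons kept a count of 0 throughout. Of 240 member values followed, the 184 called ones kept their direction in each alternative, and 6 of the 56 not called changed sign. Prmt9 in transgenic against WT cells at 6 h ran from -0.46 to 0.035 on leaving out 1 array. Kdm2b in WT cells at 24 h was 0.024 with median centring and 0.127 without the 3 WT arrays marked Rep, and -0.191 to 0.086 on leaving out 1 array. Prmt6 at 24 h ran from -0.089 to 0.258 in WT cells and from -0.106 to 0.098 in transgenic cells, where it was 0.043 as deposited and 0.042 with median centring. Prmt5 from 6 h to 24 h ran from -0.171 to 0.127 in WT cells and from -0.205 to 0.05 in transgenic cells. Counts for role groups and lists with the block or without the 3 WT arrays marked Rep were added after the data were seen. No scaling moved the median of all probe sets by more than 0.1 (log2). With 2 arrays per group, the number of arrays limits every comparison.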

Other observations

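Polycomb repressive complex 1, which reads the H3K27 mark and ubiquitinates histone H2A, was measured with 17 genes, and at 24 h 4 rose and 5 fell in each genotype. Among all probe sets other than the 40% dimmest, 19.1% were called higher and 20.6% lower in WT cells and 17.9% and 17.7% in transgenic cells. In WT cells 1 rose and 2 fell without the 3 arrays marked Rep. Bmi1 and Pcgf2, which are alternative Polycomb ring finger subunits, rose by 0.67 ± 0.09 and 0.92 ± 0.20 in WT cells (limma adjusted p = 0.000685 and 0.00895) and by 0.59 ± 0.09 and 0.75 ± 0.20 in transgenic cells (adjusted p = 0.00157 and 0.0258). Cbx7, a subunit that binds methylated H3K27, fell by 0.89 ± 0.13 and 0.82 ± 0.13 (adjusted p = 0.00124 and 0.00245), and Phc1, a subunit that joins complexes together, by 0.89 ± 0.10 and 0.74 ± 0.10 (adjusted p = 0.000387 and 0.00123). The median of the 17 differences was -0.21 in WT and -0.216 in transgenic cells. The calls of Bmi1, Cbx7 and Phc1 held without any 1 array. That of Pcgf2 ended in WT cells without the unmarked array at 0 h, the array marked Rep at 24 h or all 3 arrays marked Rep (adjusted p up to 0.0732), and in transgenic cells without either array at 0 h or the unmarked array at 24 h (up to 0.16).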
